A study of Mus musculus
Rattus norvegicus and Mus musculus and Rattus norvegicus with 95 samples.

Results

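The comparison is between mouse-rat allodiploid embryonic stem cell (AdESC) lines whose names carry the number 2, MR2-1 and RM2-1, and those that carry the number 1, MR1-1 and RM1-1. These 4 bulk libraries were taken by line name from the 8 bulk libraries of a series of 95 samples. Each library came from 1 line, so each side held 2 lines, 1 of the MR kind and 1 of the RM kind. AdESCs hold a mouse and a rat chromosome set in the same nucleus, and all 4 lines share that constitution. The labels give neither what the number nor what MR and RM stand for, and they name no passage, culture, day or medium. The bulk cells are labelled as embryonic stem cells in G0/G1. Single AdESC cells of the same lines were sequenced separately, 6 of MR1-1, 4 of RM1-1, 8 of MR2-1 and 6 of RM2-1, which makes 24 of the 87 single cells of the series. Mouse ESC lines F145 and F146 and rat ESC lines DA25 and DA53 gave the parental levels. Nothing says that the lines were grown or processed apart, and each is 1 culture of 1 line as far as the labels go. A p-value here sets the difference between the numbers against the spread between the 2 lines of the same number. Whether lines of the same number shared a culture or batch cannot be told from the labels.

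Embryonic stem cells hold a naive state through LIF and Stat3 signalling and a core of transcription factors that includes Pou5f1, Nanog, Sox2, Klf4 and Esrrb. Fgf4 signalling through ERK pushes them towards a primed, epiblast-like state, and active ERK switches on its own antagonists, the Sprouty and Spred proteins and the Dusp phosphatases, together with the Etv transcription factors and Myc. Nodal and BMP signals act beside it, with Lefty2 and the Id genes as their respective targets. Levels of these genes therefore differ between stem cell lines kept or caught in different signalling states.

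Values are FPKM made by the authors, and differences are given as log2(FPKM + 1) in lines numbered 2 minus lines numbered 1, with the standard error from limma, a linear model fitted across all genes. A gene is said to have passed the test, to have risen or to have fallen when its Benjamini-Hochberg adjusted p was under 0.05. Of 13926 homologues, 8664 averaged 1 FPKM or more across the 4 libraries. The summed FPKM per library ran from 319603 to 359535, and the number of genes at 1 FPKM or more from 8304 to 8770. Read depth is unknown. Pou5f1 stood at 660 FPKM in MR1-1, 675 in RM1-1, 807 in MR2-1 and 696 in RM2-1, and Nanog at 249, 252, 299 and 176 FPKM in the same order, so these defining stem cell genes were high in every line. Feeder fibroblast markers were also present in the bulk libraries. Their sum over 10 markers, Col1a1 and Col3a1 among them, was 33.6 FPKM in MR1-1, 161.5 in RM1-1, 178 in MR2-1 and 203 in RM2-1, and none of the 10 passed the test. In single cells the mean log2(FPKM + 1) over the 10 markers was 0.16 in MR1-1, 0 in RM1-1, 0.10 in MR2-1 and 0.04 in RM2-1. Col1a1 averaged 1.12 FPKM in MR1-1 cells and 0.567 in MR2-1 cells, while Col3a1, Lum, Dcn and S100a4 were listed at 0 in all 4 lines. The part of feeder RNA in the results was not tested.

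Across lines, 401 genes passed the test, 4.63% of those tested. Of these, 205 rose in lines numbered 2 (2.37%) and 196 fell (2.26%). The 2 lines with the same number were the most alike: across the 8664 genes the correlation of log2 levels was 0.963 between MR1-1 and RM1-1 and 0.965 between MR2-1 and RM2-1, against 0.901 between MR1-1 and MR2-1 and 0.915 between RM1-1 and RM2-1. For the pairs that share neither number nor kind, the correlation was 0.936 between RM1-1 and MR2-1 and 0.891 between MR1-1 and RM2-1. These are correlations across genes, which are not independent replicates. The 3 largest falls were those of Spry4, Trh and Dusp6 and the 3 largest rises those of Prss33, Gata2 and Gadd45g. In bulk RNA, fewer cells of a type and less RNA per cell cannot be told apart.

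**Figure D1:**
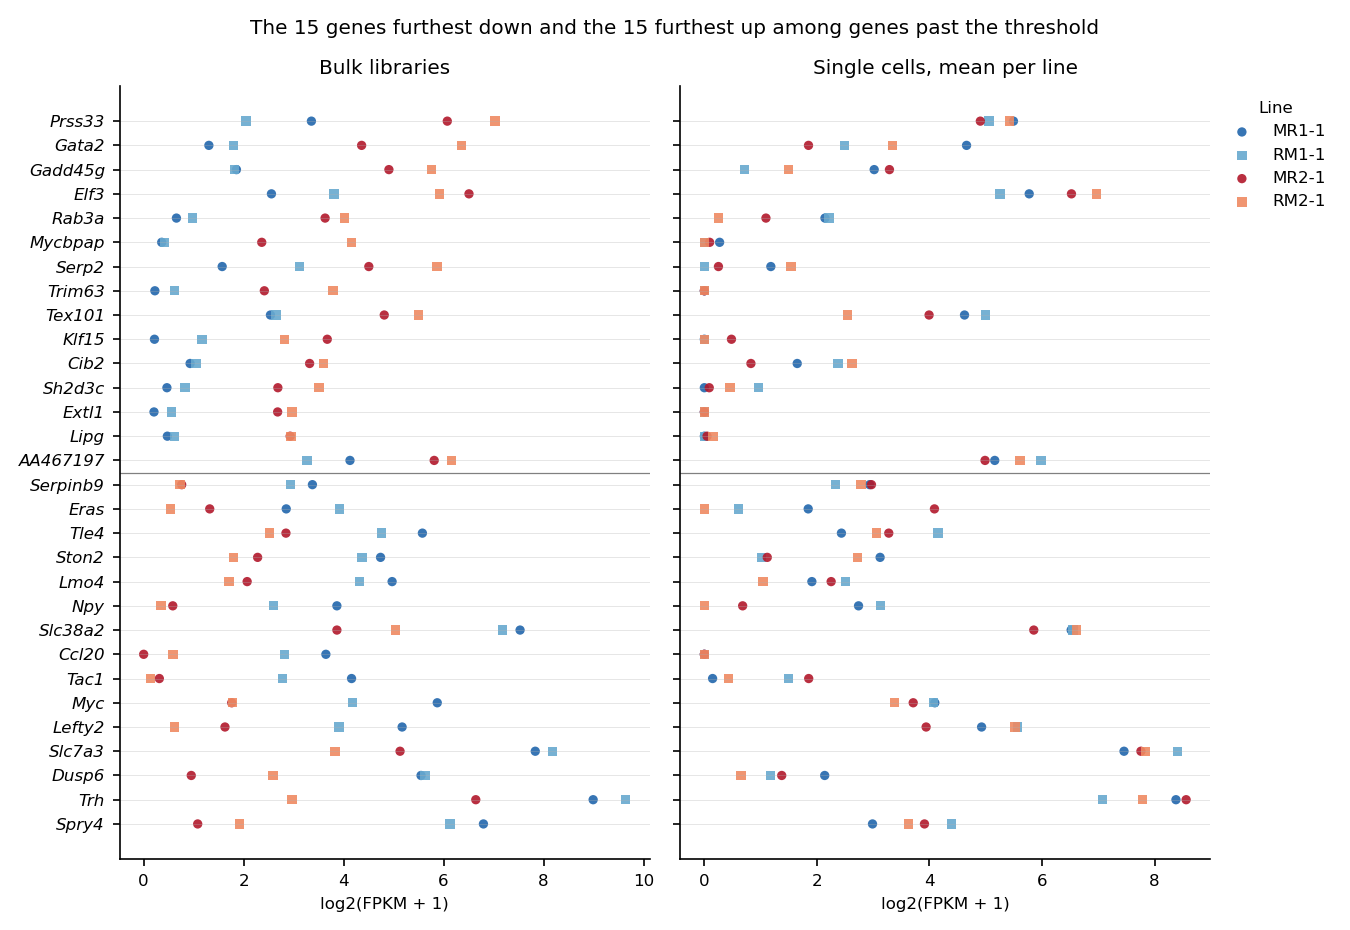
Level of the 15 genes with the largest falls (lower rows) and the 15 with the largest rises (upper rows) among genes past the threshold, as log2(FPKM + 1), 1 point per line. In bulk (left) the lines numbered 1 (blue) and 2 (red) are apart for all 30 genes. In the mean of the single cells of each line (right) they overlap for most, with Trim63 and Extl1 at 0 in every line. Npy and Elf3 are among the genes that are apart in the same direction there, while Rab3a and Tex101 are apart in the opposite direction.

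The count depended on how the spread was estimated and on which libraries were in the fit. A fit without 1 line takes its spread from the side that still has 2 lines. With the 4 parental libraries in the same fit, 2 genes passed, Gadd45g and Rab3a, and with no filter on low values none did (2790 genes at an unadjusted p under 0.05, against 2443 with the filter). Without RM2-1 the count was 35, without MR1-1 220 and without RM1-1 788. No gene of the 401 changed sign in any of these fits. The sign could not change with the parental libraries added or with no filter, because the difference itself stays the same. Nor could leaving out 1 line change it for a gene whose lines do not overlap. In all, 20 of the 401 genes, 14 lower and 6 higher, passed in 11 of the 12 other fits on the AdESC libraries alone, including those without 1 line each. The exception was the fit with no filter on low values, which called no gene. Among the 81 genes named by rule that passed, 15 still did without RM2-1, among them Spry4, Trh, Dusp6, Slc7a3, Ccl20, Slc38a2, Lmo4, Ston2, Id3, Prss33, Gata2, Gadd45g, Elf3 and Rab3a.

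The differences also moved with the base composition of the transcript. Across 8349 genes with a mouse reference transcript, the rank correlation between the bulk difference and transcript GC content was 0.341, and it was 0.413 for MR2-1 minus MR1-1 and 0.194 for RM2-1 minus RM1-1. In single cells it was 0.033. With genes in 4 classes of equal size by GC content, in the lowest class the median difference was -0.31, with 7 genes risen and 91 fallen. In the highest class it was 0.24, with 114 risen and 19 fallen. The median GC content was 55.98% in risen genes and 46.4% in fallen genes, against 50.8% in all genes tested. With each library's trend over GC content removed, 163 genes passed, 65 higher and 98 lower, and 129 of the 401 were among them. The share of higher calls was then 39.9%, against 51.1% in the unadjusted fit. The part of GC content in the calls below was not tested beyond that fit, and for named genes the adjusted p of that fit or the loss of the call is given where it ended one.

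**Figure D2:**
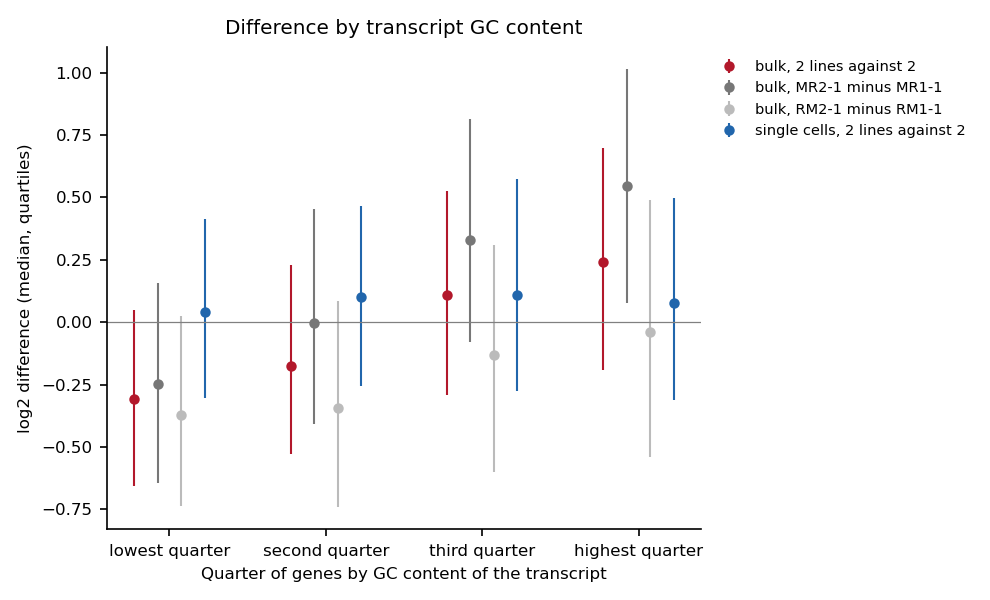
Median log2 difference, number 2 minus number 1, with quartiles over genes (vertical lines), in 4 classes of genes of equal size by GC content of the mouse reference transcript, for the 2 against 2 comparison in bulk, for each pair of lines and for single cells. The bulk median goes from -0.31 in the lowest class to 0.24 in the highest, and the single-cell median stays between 0.04 and 0.11.

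Among genes that ERK signalling switches on, several inhibitors and transcription factors fell in the lines numbered 2. Of the 23 feedback and immediate early genes tested, 6 fell and none rose: Spry4, Dusp6, Myc, Etv4, Etv1 and Spred1. Over all genes tested 2.26% fell. The median difference of the list was -1.11, against -0.04 over all genes tested, and 15 of the 23 were lower in both lines numbered 2 than in either line numbered 1, an arrangement found in 31.7% of all genes. Spry4, which encodes a Sprouty inhibitor of the pathway, stood at 110 FPKM in MR1-1 and 68.7 in RM1-1, against 1.11 in MR2-1 and 2.78 in RM2-1. That was a difference of -4.96 ± 0.37 (SE, adjusted p = 0.0109), the largest of any gene that passed. Dusp6, the phosphatase that inactivates ERK in the cytoplasm, was at 45.8 and 48.4 FPKM in MR1-1 and RM1-1 and at 0.934 and 5.00 in MR2-1 and RM2-1 (-3.82 ± 0.49, adjusted p = 0.0252). Myc was at 57.6 and 17.0 FPKM against 2.39 and 2.43 (-3.25 ± 0.51, adjusted p = 0.0315). The groups did not overlap for any of these 3 genes, and for Myc the 2 lines numbered 1 differed more from each other than those numbered 2.

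The Etv factors differed among themselves. Etv5, Spry2 and Dusp5 are named after their values were seen. Etv4 was at 24.1 FPKM in MR1-1 and 43.9 in RM1-1, against 7.33 in MR2-1 and 4.14 in RM2-1, a difference of -2.36 ± 0.37 (adjusted p = 0.0315). Etv1 lay at 5.32 and 4.45 FPKM against 0.575 and 0.110 (-2.15 ± 0.34). Etv5, another member of the family, did not pass: its levels were 154, 125, 110 and 112 FPKM in MR1-1, RM1-1, MR2-1 and RM2-1. Spred1, a Sprouty-related inhibitor of Raf activation, fell by 2.00 on the log2 scale, while Spry2 ran from 28.8 FPKM in MR2-1 to 67.2 in MR1-1 with the groups overlapping. Dusp5, a nuclear ERK phosphatase, was lower in both lines numbered 2 (-2.06 ± 0.51) with an adjusted p of 0.0598. Without RM2-1, Spry4 and Dusp6 were the 2 of these 6 genes that still passed, and with the GC trend removed Myc (adjusted p = 0.0501) and Spred1 (0.0526) did not.

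The immediate early factors Egr1, Fos and Junb, picked out after their values were seen, had another order of lines. Egr1 stood at 31.2 FPKM in MR1-1, 60.2 in RM1-1, 0.26 in MR2-1 and 149 in RM2-1, and Fos at 3.60, 9.00, 3.64 and 59.6. Junb was at 14.3, 8.57, 9.94 and 34.3 FPKM. RM2-1 was thus the highest of the 4 lines for these 3 genes while it was low for Spry4 and Dusp6, and none of the 3 passed the test.

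The 2 mouse parental lines were also far apart in these genes, as a description with 1 library each. Spry4 was at 85.4 FPKM in F145 and 0.36 in F146, and Dusp6 at 62.01 and 0.908, while the rat lines DA25 and DA53 held Spry4 at 5.30 and 6.58. Averaged over the list, log2(FPKM + 1) was 4.92 in F145 and 2.32 in F146, 2.89 in DA25 and 2.96 in DA53, 4.56 in MR1-1, 4.23 in RM1-1, 2.77 in MR2-1 and 3.64 in RM2-1. F145 was the highest of the 8 libraries and the lines numbered 1 came next, while F146 was the lowest and MR2-1 came next to it. F145 also carried the most feeder marker RNA of the 8 bulk libraries, at a sum of 2112 FPKM, and MR1-1 the least of the 4 AdESC lines.

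**Figure D3:**
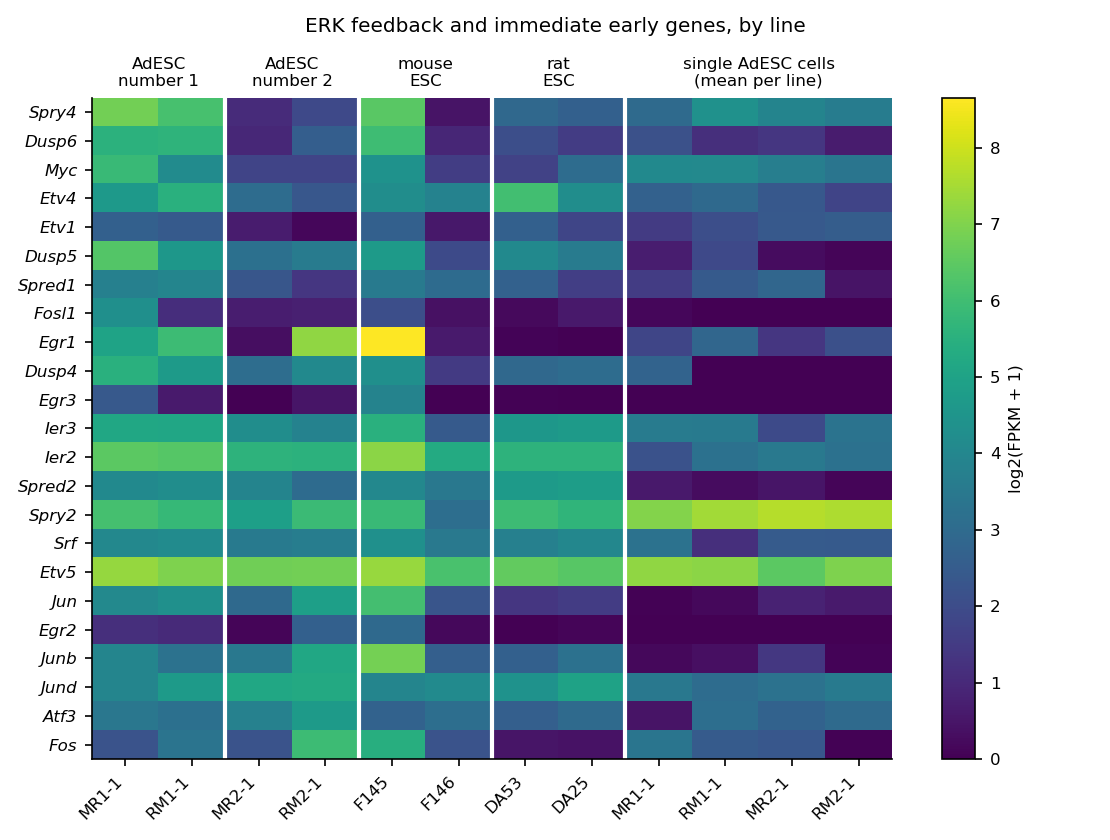
Level of the 23 ERK feedback and immediate early genes tested, as log2(FPKM + 1), in rows ordered by the bulk difference, with 1 column per line: the bulk AdESC lines, the mouse and rat ESC lines, and the mean of the single AdESC cells of each line. Spry4 and Dusp6 are bright in MR1-1, RM1-1 and F145 and dark in MR2-1, RM2-1 and F146, and the single-cell columns do not show that split for these 2 genes.

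Of 12 primed epiblast genes tested, 4 fell and none rose, where 2.26% of all genes fell. The median was -0.89, and 9 were lower in both lines numbered 2, against 31.7% of all genes. In single cells the median of the 11 tested was 0.16, against 0.08 for all genes. Over the 10 genes tested in both, the median was -1.08 in bulk and 0.00 in cells. The zinc finger factor gene Zic5, at 24.02 and 17.9 FPKM in MR1-1 and RM1-1 and 5.12 and 4.32 in MR2-1 and RM2-1, fell by 1.93 (adjusted p = 0.0315). Zic2, of the same family, was at 42.5 and 26.2 against 10.6 and 7.63 FPKM and fell by 1.78 (adjusted p = 0.0344). N-cadherin, Cdh2, was low throughout, at 5.51 and 3.45 FPKM against 0.687 and 0.543 (-1.74 ± 0.34). The groups were apart for each of Zic5, Zic2 and Cdh2. The de novo DNA methyltransferase gene Dnmt3b, at 48.4, 71.4, 29.4 and 21.1 FPKM in MR1-1, RM1-1, MR2-1 and RM2-1, had an adjusted p of 0.0518, and the primed markers Fgf5 and Otx2 were under the level filter. Without RM2-1 1 of the 4 calls remained, and without MR1-1 also 1. Without RM2-1 the adjusted p was 0.0809 for Zic5, 0.101 for Zic2 and 0.105 for Cdh2, and without MR1-1 it was 0.0541 for Zic5, 0.0781 for Zic2 and 0.0953 for Cdh2. Cdh2 also missed the threshold with the GC trend removed (0.0532).

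In the Nodal pathway 1 of 14 genes tested fell, the secreted Nodal inhibitor and target Lefty2, at 34.97 and 14.0 FPKM in MR1-1 and RM1-1 and 2.09 and 0.539 in MR2-1 and RM2-1 (-3.41 ± 0.50, adjusted p = 0.0315). The call was lost without RM2-1 (adjusted p = 0.0687). The ligand Nodal was at 36.4 and 33.7 against 16.3 and 6.85 FPKM and the transcription factor Foxh1 at 26.6 and 18.7 against 9.82 and 5.52, both with an adjusted p of 0.0515. Lefty1, at 140, 29.4, 25.6 and 5.94 FPKM, did not pass (adjusted p = 0.114), and its 2 lines numbered 1 were further apart than RM1-1 and MR2-1. The list median was -0.51, and 2.26% of all genes tested fell. Over the 12 genes also tested in single cells, the median was -0.79 in bulk and -0.08 in cells.

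Among 15 BMP and Id genes, Id3 fell and the ligand Bmp7 rose, where 2.26% of all genes fell and 2.37% rose. The list median was -0.39, and that of the 12 genes tested in single cells was 0.18, against 0.08 for all genes. Id3, a target of BMP signals that blocks basic helix-loop-helix factors, was at 131 and 85.4 FPKM in the lines numbered 1 and at 20.9 and 30.1 in those numbered 2 (-2.03 ± 0.28, adjusted p = 0.0294). Bmp7 was at 0.824 and 1.51 against 8.37 and 7.56 FPKM (2.07 ± 0.32, adjusted p = 0.0315). Neither pair of groups overlapped. Id1, named after its values were seen, was at 131 FPKM in MR1-1 but at 39.5 in RM1-1, 23.4 in MR2-1 and 49.2 in RM2-1, so it did not share the split. Without RM2-1 the adjusted p of Bmp7 was 0.0809.

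The core of the naive state held no common direction. Of 22 naive pluripotency genes, 1 rose and 1 fell, and the median was 0.01, with a negative sign without MR2-1 (-0.41), without MR1-1 (-0.29) or with the GC trend removed (-0.10). Sox2 ran at 86.6, 35.4, 46.9 and 15.0 FPKM in MR1-1, RM1-1, MR2-1 and RM2-1, Klf4 at 31.7, 73.3, 53.01 and 48.8 and Esrrb at 88, 120, 121 and 80.3, and the groups overlapped for all 3. The gene that rose was Socs3, the feedback inhibitor that Stat3 induces, at 22.02 and 10.5 FPKM against 82.03 and 58.3 (2.11 ± 0.36, adjusted p = 0.0316). Stat3 itself, named after its values were seen, was at 14.4 and 24.6 against 33.8 and 47.2 FPKM and did not pass (adjusted p = 0.0867). The gene that fell was the RNA-binding factor Lin28a, at 83.9 and 120 FPKM against 42.05 and 29.03 (-1.497 ± 0.27, adjusted p = 0.0368). Both calls were lost without RM2-1 (adjusted p = 0.0723 for Socs3 and 0.105 for Lin28a), and that of Socs3 also with the GC trend removed (0.0586).

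Among the other genes with the largest falls, Slc7a3, an X-linked carrier of cationic amino acids, was at 227 and 289 FPKM in MR1-1 and RM1-1 and at 33.96 and 13.2 in MR2-1 and RM2-1 (-3.53 ± 0.39, adjusted p = 0.0230). Slc38a2, a carrier of neutral amino acids, was at 184 and 144 against 13.6 and 31.9 FPKM (-2.90 ± 0.37). Both passed in 11 of the 12 other fits on the AdESC libraries alone, all but the one with no filter on low values (adjusted p = 0.119 for Slc7a3). The stress factor Atf4, which drives genes of amino acid supply, also fell, at 322 and 297 against 123 and 174 FPKM (-1.08 ± 0.22, adjusted p = 0.0406). It was one of the less stable calls, with an adjusted p of 0.0800 without RM2-1, 0.0584 without MR1-1, 0.0802 without MR2-1 and 0.0644 with the GC trend removed. Trh, the precursor of thyrotropin-releasing hormone, spanned 507 and 795 FPKM against 98.9 and 6.81 (-4.51 ± 0.97, adjusted p = 0.0468), with the lines numbered 2 far apart. Its adjusted p was 0.0560 with the GC trend removed. Npy, neuropeptide Y, was at 13.6 and 5.07 FPKM against 0.497 and 0.270 (-2.77 ± 0.45, adjusted p = 0.0315), and without RM2-1 at an adjusted p of 0.0851.

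Among the risen genes, Prss33, a serine protease, was at 9.23 and 3.12 FPKM in MR1-1 and RM1-1 and at 66.3 and 130 in MR2-1 and RM2-1 (3.85 ± 0.47, adjusted p = 0.0239). Gadd45g, which acts in growth arrest and differentiation, was at 2.62 and 2.53 against 28.95 and 52.9 FPKM (3.49 ± 0.34, adjusted p = 0.0203). Elf3, an epithelial Ets factor, was at 4.88 and 13.0 against 89.9 and 59.4 FPKM (3.03 ± 0.42, adjusted p = 0.0290). All 3 passed in the same 11 of 12 fits, and each had an adjusted p of 0.119 with no filter on low values. Gata2, a factor of trophoblast and blood, stood at 1.47 and 2.48 against 19.5 and 81.3 FPKM (3.81 ± 0.59, adjusted p = 0.0315), with RM2-1 well above MR2-1. With the GC trend removed its adjusted p was 0.0545. The synaptic vesicle GTPase gene Rab3a was at 0.575 and 0.976 against 11.4 and 15.2 FPKM (3.01 ± 0.32). The tight junction gene Cldn4, at 31.1, 32.8, 118 and 121 FPKM in MR1-1, RM1-1, MR2-1 and RM2-1, and Litaf, at 23.8, 24.4, 104 and 90.6, also passed in those 11 fits and were picked out for that after their values were seen.

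Of 21 cholesterol synthesis genes tested, 3 rose and none fell, where 2.37% of all genes rose. The median was 0.74, and 13 were higher in both lines than in either line numbered 1, against 27.9% of all genes. Insig1, which retains the sterol sensor in the endoplasmic reticulum, was at 39.5 and 46.01 FPKM against 98.5 and 198 (1.69 ± 0.32, adjusted p = 0.0392). The enzyme genes Dhcr7 (17.3 and 14.8 against 51.04 and 40.4 FPKM) and Mvd (21.1 and 22.3 against 57.7 and 44.8) rose by 1.45 and 1.19. Srebf2, the master factor of the pathway, named after its values were seen, was at 46.8, 52.7, 95.3 and 87.7 FPKM and had an adjusted p of 0.0526. No call remained without RM2-1, where the median was 0.81, and with the GC trend removed 1 did, Dhcr7, with a median of 0.67.

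Chaperone and replication genes fell in part. Of 14 heat shock genes 3 fell and none rose: Dnaja1 (123 and 82.9 against 36.2 and 28.7 FPKM), Hspa8 (2773 and 3059 against 1489 and 1187) and Hspd1 (380 and 415 against 212 and 195). The median of the list was -0.25, and 6 of the 14 were lower in both lines numbered 2. Over all genes tested, 2.26% fell and 31.7% were lower in both. Of 28 G1/S genes, Tyms and Pcna fell, 17 were lower in both lines numbered 2 (31.7% of all genes were) and the median was -0.45. The median of 26 G2/M genes was 0.05 with none past the threshold. In single cells the order was the other way. There the median was -0.04 for G1/S genes (15 of 28 lower) and -0.21 for G2/M genes (20 of 26 lower), against 0.08 for all genes. Pcna, the sliding clamp of DNA polymerase, was at 336 and 341 against 182 and 178 FPKM (-0.91 ± 0.17, adjusted p = 0.0392). The cell cycle inhibitor genes Cdkn1a (59.1 and 74.2 against 146.4 and 212 FPKM) and Cdkn1c (1.95 and 1.30 against 7.12 and 5.65) rose by 1.40 and 1.497. No heat shock or G1/S call held without RM2-1, nor did Cdkn1a (adjusted p = 0.105) or Cdkn1c (0.102), and with the GC trend removed Dnaja1 was the 1 of these 7 that passed.

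Imprinted genes are expressed from 1 parental copy in at least some tissues, and the values here do not separate the copies. Of 16 maternally expressed genes, Cdkn1c, Igf2r and Dhcr7 rose and none fell, with a median of 0.33, where 2.37% of all genes rose. Dhcr7, also on the cholesterol synthesis list, and Cdkn1c are the calls already given above. Dcn, which did not pass, is both on this list and among the feeder markers. Igf2r, the receptor that clears Igf2, was at 34.8 and 38.8 FPKM against 68.9 and 118 (1.27 ± 0.28, adjusted p = 0.0487). Of 9 paternally expressed genes Snrpn fell, at 48.2 and 49.5 against 18.1 and 13.3 FPKM (-1.59 ± 0.25, adjusted p = 0.0315). The median was -0.39, and 2.26% of all genes fell. H19 ran at 43.3, 13.2, 16.1 and 44.4 FPKM in MR1-1, RM1-1, MR2-1 and RM2-1, so it went with neither number. Without RM2-1 none of these 4 calls remained, with adjusted p of 0.0809 for Dhcr7 and 0.0851 for Snrpn. With the GC trend removed Cdkn1c (0.0693) and Igf2r (0.0768) did not pass.

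Of 268 X-linked genes tested, 9 fell and none rose, which is 3.36% fallen against 2.26% of all genes, and the median was -0.14. Besides Slc7a3 the 9 included the Ras family gene Eras, at 6.22 and 14.1 FPKM against 1.499 and 0.452, and the cold-inducible RNA-binding gene Rbm3, at 249 and 304 against 125 and 88.8. X-linked transcripts had a median GC content of 46.5%, below the 50.8% of all genes, and with the GC trend removed the list median was 0.08, with 5 of the 9 past the threshold and Rbm3 (adjusted p = 0.0554) not among them. Without RM2-1 2 of the 9 passed.

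Other lists held few calls, where 2.37% of all genes rose and 2.26% fell. Vim and Fstl1, of the fibroblast and mesenchyme list, fell (Vim at 85.7 and 92.2 against 31.4 and 36.6 FPKM), while the 10 feeder markers had a median of 0.81 with none past the threshold. Apoe, which carries lipids, rose, at 689 and 849 against 1638 and 1941 FPKM (1.22 ± 0.19, adjusted p = 0.0315). Of 26 glycolysis and hypoxia genes, Ldhb and Vegfa rose and the histone demethylase gene Kdm3a fell, at 172 and 123 against 40.8 and 56.3 FPKM. The respiratory chain (44 genes), ribosomal protein (43) and polycomb (24) lists had no gene past the threshold and medians of 0.00, 0.03 and 0.16. The Fc receptor-like gene Fcrla, listed at 0 in both mouse lines, was at 78.8, 76.5, 171 and 168 FPKM in MR1-1, RM1-1, MR2-1 and RM2-1 (1.12 ± 0.18, adjusted p = 0.0316). Without RM2-1 none of Vim, Fstl1, Apoe, Ldhb, Vegfa, Kdm3a and Fcrla passed, and with the GC trend removed only Vim and Fcrla of these did.

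Further lists also gave few calls, beside the 2.37% of all genes that rose and the 2.26% that fell. The Wnt inhibitor gene Notum fell, at 6.95 and 9.56 FPKM against 1.72 and 0.718 (-2.08 ± 0.36, adjusted p = 0.0323), beside Myc, which is on that list too, among 11 Wnt genes with a median of -0.45. Of 28 genes of the unfolded protein and amino acid stress response, the chaperone partner gene Sdf2l1 (16.5 and 32.03 against 81.2 and 77.4 FPKM) and the stress factor gene Ddit3 (27.4 and 28.7 against 57.6 and 128) rose while Atf4 fell, and the median was -0.17. Of 23 p53 targets, Cdkn1a and the mTOR inhibitor gene Ddit4 (17.0 and 22.3 against 76.9 and 47.6 FPKM) rose, with a median of 0.08. Stat2, a factor of the interferon response, rose among 15 such genes, at 3.17 and 4.28 against 14.9 and 14.0 FPKM. None of the 12 DNA methylation genes passed, with a median of -0.65 and 8 lower in both lines numbered 2, against 31.7% of all genes. The median of the 10 tested in single cells was 0.14, against 0.08 for all genes. Without RM2-1 none of Notum, Sdf2l1, Ddit3, Ddit4 and Stat2 passed, and with the GC trend removed Sdf2l1 (0.0509) and Ddit3 (0.107) did not.

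**Figure D4:**
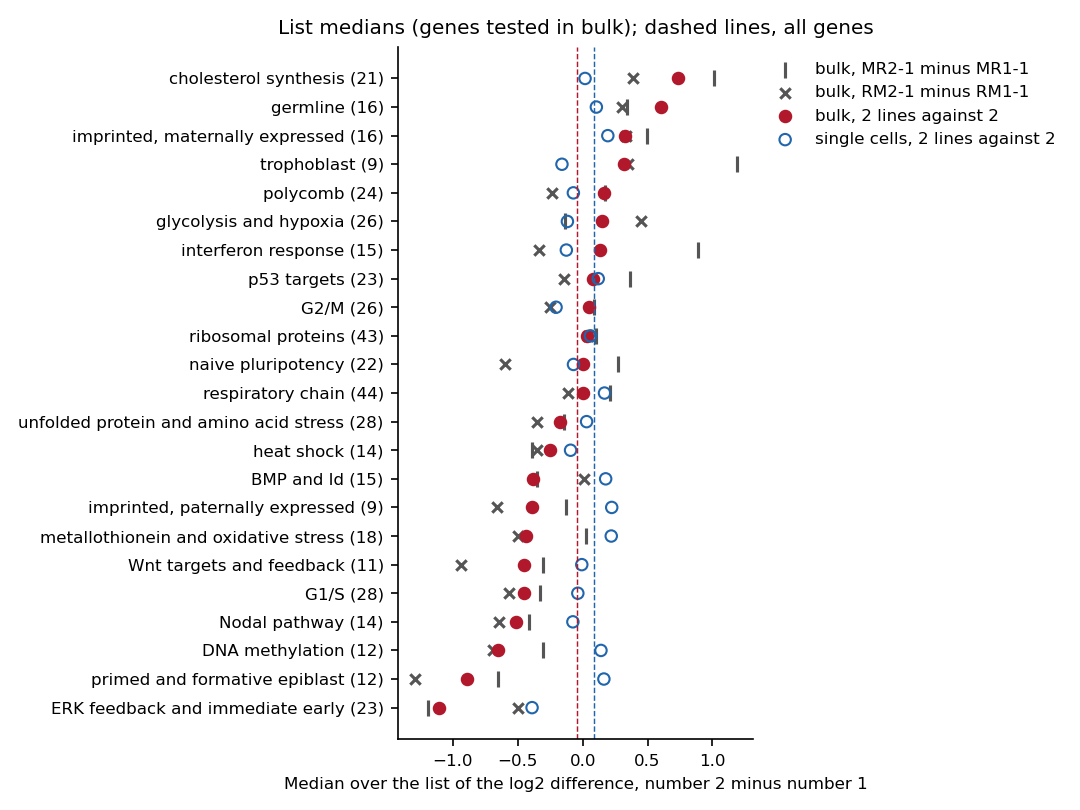
Median log2 difference of each pathway list with 9 or more genes tested in bulk (number of genes in brackets), for bulk (filled circles), for each bulk pair of lines (bars and crosses) and for single cells (open circles), with dashed lines at the medians of all genes. The ERK list lies lowest at -1.11 and cholesterol synthesis highest at 0.74 in bulk, while in single cells they lie at -0.39 and 0.02.

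Of the 205 risen genes, the mean of the lines numbered 2 was above all 4 parental lines for 140. The mean of the lines numbered 1 was below all 4 for 56. Of the 196 fallen genes, the lines numbered 1 were above all 4 parental lines for 93 and the lines numbered 2 below all 4 for 99. Over all 8664 genes the corresponding counts were 1134 above and 1431 below for the lines numbered 2, and 936 above and 791 below for those numbered 1. The parental lines did not enter the fit. The risen and fallen genes were chosen by the same AdESC values, however, so these counts are in part set by that choice. The counts over all genes do not correct for it. Of the risen genes 88.3% were lower in DA53 than in DA25, and of the fallen genes 78.6% were higher, against 49.3% and 48.7% of all genes. Between the mouse lines, 66.8% of the risen genes were higher in F146 than in F145 and 60.2% of the fallen genes lower, against 58.7% and 40.997%. The difference between DA53 and DA25 had a rank correlation with GC content of -0.108 and that between F146 and F145 of -0.233. The sign follows the order of subtraction, and the part of GC content in these shares was not tested.

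In single AdESC cells, each line entered as the mean FPKM of its cells, because cells of a line are not replicates. None of 7383 genes passed the limma test, and 389 had an unadjusted p under 0.05 (5.27%). The median standard error of a difference was 0.667, against 0.304 in bulk, so single cells gave the less precise comparison. The lines with the same number were no more alike than others in cells, with correlations across genes from 0.879 to 0.889 over the 6 pairs. A median of 4826 to 5537 genes per cell was at 1 FPKM or more in the 4 lines, and no 2 of the 24 cells held identical values.

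The bulk direction recurred in part. Of the 401 genes, 322 were tested in cells as well, and 197 of these (61.2%, Wilson 95% interval 55.8 to 66.3, which treats genes as independent) had the same sign, against 52.3% of all 7151 genes in both fits. Of risen genes 98 of 143 did (68.5%) and of fallen genes 99 of 179 (55.3%). Over all 7151 genes 56.6% were higher in cells of the lines numbered 2 and 43.4% lower, so both shares stood about equally far above that base. The median difference in cells was 0.31 for risen genes and -0.05 for fallen genes, where bulk gave 1.48 and -1.38, and the median of all genes tested in cells was 0.08. The share was 54.3% among the genes that passed without RM1-1 and 52% among the 25 that passed without RM2-1. Across the 7151 genes the correlation between the bulk and the single-cell difference was 0.084 (Pearson) and 0.090 (Spearman), a description across genes with the 4 lines in common.

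**Figure D5:**
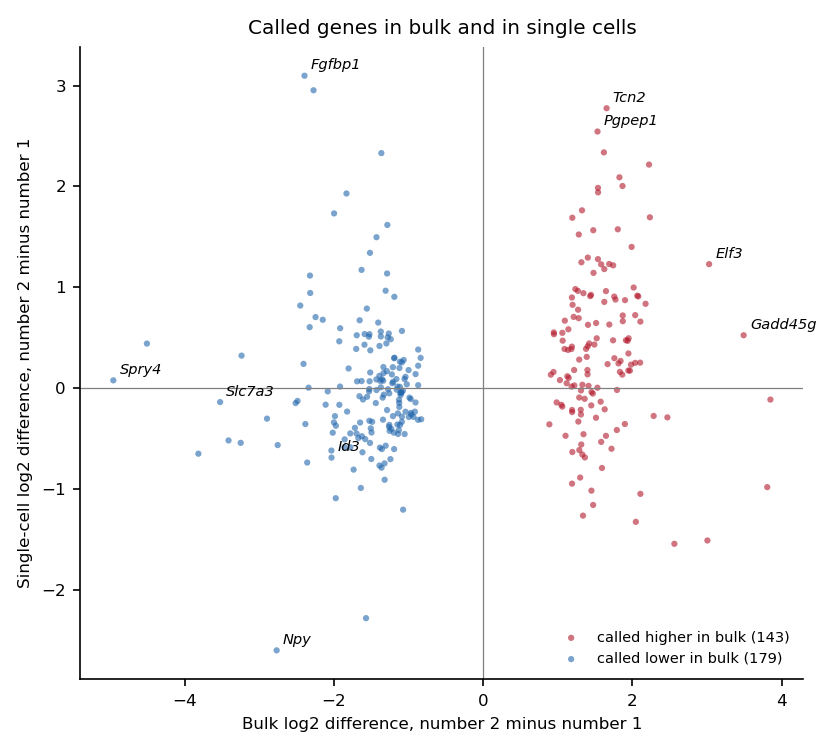
Log2 difference, number 2 minus number 1, in single cells (vertical axis) against bulk (horizontal axis) for the 322 genes past the bulk threshold that were tested in both, 143 higher (red) and 179 lower (blue) in bulk. The red points lie mostly above 0 on the vertical axis (98 of 143), the blue points on both sides of it, and Spry4, the furthest left, is at 0.08.

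The median of the 16 ERK genes tested in single cells was -0.39, against 0.08 for all genes, with 9 of the 16 lower and none past the threshold. The 2 genes with the largest bulk falls in the list had no such split in cells. Spry4 averaged 6.94 FPKM in MR1-1 cells, 20.0 in RM1-1, 14.1 in MR2-1 and 11.3 in RM2-1, a difference of 0.08 ± 0.61, and 5 of 10 cells of the lines numbered 1 and 7 of 14 of those numbered 2 held it at 1 FPKM or more. Dusp6 averaged 3.40, 1.27, 1.59 and 0.569 FPKM (-0.65 ± 0.91). Fitted per line as bulk minus cells, the difference between the data types was -5.04 ± 0.84 for Spry4, with an adjusted p of 0.435. No gene of 7151 passed that test, and 710 had an unadjusted p under 0.05 (9.93%).

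A few genes had the same direction in both data types with lines that did not overlap. In single cells, 20.2% of genes were higher in both lines numbered 2 and 13% lower in both. Npy averaged 5.68 and 7.76 FPKM in cells of MR1-1 and RM1-1 and 0.603 and 0 in MR2-1 and RM2-1 (-2.60 ± 0.87, unadjusted p = 0.00791, adjusted p = 0.864), but 2 of 10 and 1 of 14 cells carried it at 1 FPKM or more. Elf3 was broader: at 53.7 and 37.2 against 91.0 and 124 FPKM (1.23 ± 0.33, unadjusted p = 0.0014), it was at 1 FPKM or more in 9 of 10 and 14 of 14 cells. Id3, in 10 of 10 and 13 of 14 cells, averaged 252 and 402 against 165 and 236 FPKM (-0.69 ± 0.24, unadjusted p = 0.0112). Of the chaperones, Hspa8 averaged 4311 and 4526 against 3412 and 3222 FPKM (-0.41 ± 0.09, unadjusted p = 0.000128) and Dnaja1 294 and 329 against 196 and 204 (-0.63 ± 0.20). All 24 cells held both. With 4 lines these are values without a call, since the adjusted p was 0.864 for each.

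Other genes went the opposite way. Fgfbp1, a carrier protein for fibroblast growth factors, was at 54.1 and 26.1 against 10.2 and 3.80 FPKM in bulk (-2.40 ± 0.47) and at 0.112 and 1.02 against 10.2 and 13.7 in cells (3.10 ± 0.82). Vim, which fell in bulk, averaged 3.29 and 0.563 against 8.29 and 17.3 FPKM in cells. Rab3a, which rose in bulk, averaged 3.42 and 3.65 against 1.14 and 0.190 FPKM in cells (-1.51 ± 0.89). It was at 1 FPKM or more in 4 of 10 and 2 of 14 cells. Socs3 (-1.05 ± 0.81), Gata2 (-0.98 ± 0.80) and Prss33 (-0.11 ± 0.40) also had the opposite sign in cells, with overlapping lines for Gata2 and Prss33. Gadd45g (0.53 ± 0.94) and Elf3 kept their bulk sign. Dhcr7 and Mvd, which rose in bulk, averaged 10.2 and 5.11 against 3.65 and 2.61 FPKM and 21.3 and 28.4 against 9.98 and 15.1 in cells. Fcrla was level in cells, at 135, 136, 142 and 138 FPKM in MR1-1, RM1-1, MR2-1 and RM2-1. Among the genes with the largest single-cell differences, Pgpep1 (1.18 and 1.97 against 10.5 and 18.2 FPKM) and Tcn2 (1.96 and 0.783 against 13.6 and 16.0) had also risen in bulk, while Wdr31 (0 and 0.945 against 14.0 and 11.6) and Rragc (7.84 and 16.4 against 0.974 and 0.257) had not passed there. Without RM2-1 the bulk calls of Fgfbp1 (adjusted p = 0.105), Pgpep1 (0.0931) and Tcn2 (0.124) were lost, and with the GC trend removed those of Fgfbp1 (0.0560) and Tcn2 (0.0693).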

How the data were processed

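Expression was measured by RNA-seq, with TruSeq libraries per the labels' protocols. The authors deposited FPKM per mouse-rat homologue, and no read counts were used here, so the read depth behind each value is unknown. FastQC 0.10.1, TopHat2 2.0.10 and Cufflinks 2.1.1 and the builds mm10 and rn5 are named per the submitters' processing notes. How mouse and rat values were joined is not given in the sources used here.

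Lines were grouped by the number in their labels. Genes averaging 1 FPKM or more across the 4 bulk AdESC libraries were fitted on log2(FPKM + 1) with limma 3.58.1 in R 4.3.3 (moderated variance with a trend, Benjamini-Hochberg adjustment over all genes tested, threshold 0.05, two-sided). The pseudocount of 1 understates the change of low genes. Single cells entered as the mean FPKM per line. An exact permutation test of 2 lines against 2 cannot go below p = 0.333, so none was used. Python 3.11.15, pandas 2.3.3 and scipy 1.17.1 did the rest, and the fit was tested on simulated data.

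GC content and length came from the longest protein-coding GENCODE mouse transcript (96.4% of genes tested), and chromosomes from a RefSeq mouse table, where 13295 homologues were found under their current symbol, 597 under a former one and 34 not at all. Named genes were the 15 largest passing differences in each direction, in each list the passing members and up to 4 others with the largest differences, a short set of stem cell genes, and the 10 largest single-cell differences in each direction. The comparison, the 37 lists and this rule were chosen with earlier results of these data known. Alternatives changed the pseudocount, level filter, scaling, variance trend, libraries and block, and, added after seeing the data, GC content and the fit of bulk minus cells. A few results are not reported here.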

Additional observations from a re-analysis of the deposited data

Results flagged for a closer look

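In 11 gene lists with at least 3 genes tested, the median difference was at least 0.1 above 0 in one pair of lines and at least 0.1 below 0 in the other. Lists with opposite signs but a median nearer to 0 in either pair are not counted. Each pair is 1 line against 1 line, and the difference between pairs was not tested. In every class of genes by GC content, the median of RM2-1 minus RM1-1 was below that of MR2-1 minus MR1-1. From the lowest class to the highest it was -0.37, -0.34, -0.13 and -0.04 for RM2-1 minus RM1-1. For MR2-1 minus MR1-1 it was -0.25, -0.002, 0.33 and 0.55. Whether the medians of the lists differ from this background of all genes was not tested. The median of MR2-1 minus MR1-1 and that of RM2-1 minus RM1-1 were 0.27 and -0.60 for naive pluripotency genes, 0.29 and -0.52 for pluripotent stem cell markers, and 0.18 and -0.59 for early embryo genes. They were 0.89 and -0.34 for interferon response genes, 0.36 and -0.14 for p53 targets, and 0.30 and -0.87 for neuroectoderm genes. They were 0.58 and -0.71 for endothelial markers, 0.18 and -0.14 for fibroblast and mesenchyme markers, 0.21 and -0.11 for respiratory chain genes, and 0.17 and -0.24 for polycomb genes. Glycolysis and hypoxia genes had the other order, -0.14 and 0.45.

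Among the single cells of MR2-1, 1 cell lay apart in summed FPKM, with a gap to its neighbour of 0.5682 of the whole range of the 8 cells, in 1 of 8 such checks, where chance gives about 1 in 20.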

How the results depend on the processing

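Against 401 genes, the count was 163 with the GC trend removed, 237 with the GC trend removed and the replicate block, 149 with no trend in the prior variance, 2 with all 8 bulk libraries, 0 with no filter on low values (limma, 2790 at an unadjusted p under 0.05), 620 with upper-quartile scaling and 797 with the replicate block (RM or MR kind). Leaving out 1 line gave 35 to 788. With a pseudocount of 0.1 it was 412 and with a mean of at least 5 FPKM 393. No called gene changed sign in any of these fits. With all libraries, no filter, no variance trend or the block alone, the difference itself is unchanged, so its sign could not change. The cause of these changes was not tested.

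The RM or MR kind is shared by name alone. It was left out of the main fit because no stated method of the study names such a block, and it entered in alternatives. The deviations of RM from MR in the lines numbered 1 and 2 had a correlation across genes of -0.130. That value does not settle a pairing gene by gene. The block kept all 401 calls. In single cells it gave 5 genes (Sat1 and Sdc4 higher, Ubb, Hspa8 and Clp1 lower, named after their values were seen), and each other alternative gave 0. The share of called genes with the same direction in single cells was 61.2%, and from 52% to 58.9% when 1 line was left out.

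Each side held 2 lines with 1 library each and the read depth is unknown, which limits every comparison. The all-library fit takes its spread from the parental lines too.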
